A study of Arabidopsis thaliana with 36 samples.

Results

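The Ψ fractions of seedling and shoot, a closely related pair among the 9 tissues profiled in *Arabidopsis thaliana*, were compared site by site in rRNA and tRNA. A site entered the comparison if both tissues had a value at the same position of the same RNA. This held for 534 of the 535 sites listed, of which 186 were in rRNA and 348 in tRNA. All plants were the wild-type accession Col-0 with no treatment or transgene. Both tissues came from plants on the same half-strength Murashige and Skoog plates, the seedlings first and the shoots after a further week of growth, when roots were collected separately. Whether the seedling samples included the root is not spelled out, and age and tissue make-up cannot be told apart here. Each of the 2 tissues had 2 libraries treated with bisulfite and 2 untreated input libraries, so 8 of the 36 libraries of the series bear on the comparison. In bulk tissue, a change in the mix of cell types and a change within cells cannot be told apart.

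BID-seq reads a pseudouridine (Ψ) as a deletion, because bisulfite forms an adduct with Ψ that the reverse transcriptase skips. Within a run of adjacent Ts, such a deletion cannot be placed on a single base. The Ψ fraction is the share of molecules carrying Ψ at a base and runs from 0 to 1. The authors summed the reads of both replicates before computing it, so each tissue has a single value per site with no replicate spread and an unknown depth. No difference below was therefore tested. A difference of 0.1 or more was called large, and the authors' own filter (passed or not in each tissue) is given for the sites named by size. A value of exactly 0 may stand for an estimate that failed, so such a site is only said to be listed at 0.

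Pseudouridine is made after transcription by synthases that rotate the base of a uridine. In nuclear rRNA most sites are chosen by box H/ACA small nucleolar RNAs that base-pair with the target, whereas in tRNA and in organelle rRNA stand-alone enzymes recognise the site themselves. In yeast, Pus7 modifies the D stem of tRNA, Pus1 the top of the anticodon stem and parts of the anticodon, Deg1 the lower anticodon stem, and Pus4 the T loop, whose Ψ is shared by nearly all tRNAs. Chloroplasts and mitochondria keep their own rRNAs and tRNAs, and SVR1 is a pseudouridine synthase of the plant chloroplast.

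A selection of the rRNA sites discussed below is shown first, which is not a ranking by size or filter. The modified base is in capitals, with 10 bases on each side where these were available. The letters come from the TAIR10.1 assembly, and positions follow the numbering of each rRNA. The nuclear sites are given at the rDNA copy on chromosome 2, plus strand. No other copy was searched, so the same bases may also occur elsewhere. The Nu-25S:1565 window lies at chr2:7688-7708, the Nu-18S:35 window at chr2:3730-3750, and the neighbouring Nu-18S:1307 and Nu-18S:1309 windows at chr2:5002-5022 and chr2:5004-5024. The Pt-23S:948 window spans bases 105628 to 105648 of the chloroplast genome, plus strand.
Pt-23S:948: gacctcaaaaTaactggggtc
Nu-25S:1565: gaaacccgtcTgatagcgctt
Nu-18S:35: catatgcttgTctcaaagatt
Nu-18S:1307: tggagcgattTgtctggttaa
Nu-18S:1309: gagcgatttgTctggttaatt

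The next 3 windows are aligned stretches of helix 69, the large-subunit hairpin that touches the tRNAs and the decoding centre, from nuclear, chloroplast and mitochondrial ribosomes. They are shown because Ψ is listed in all 3 ribosomes at the base in capitals and at further uridines a few bases downstream. The nuclear window lies at chr2:8378-8398. The chloroplast window spans bases 106606 to 106626 of that genome. The mitochondrial one spans bases 141734 to 141754 of the minus strand of the mitochondrial genome. There 10 of the 11 mitochondrial sites fell on a T, against 8 at the next best placement.
Nu-25S:2255: acggtgggagTaactatgact
Pt-23S:1926: acggcggccgTaactataacg
Mt-26S:1536: acggcggcagTaactctaact

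Of the tRNAs, the following 7 windows show sites the results turn on for which the annotated genes gave a single sequence around the site. The name gives the amino acid, the anticodon, a serial number and the genome label of the study, with PT for chloroplast and nuclei-Mt for a joint nuclear and mitochondrial label. The number after it is the position listed.
Val-TAC-3-PT 17: atagctcagtTaggtagagca
Met-CAT-7-PT 17: gtagagcagtTtggtagctcg
Pro-TGG-5-PT 39: ttgttttgggTacaaaatgtc
Tyr-GTA-7-nuclei-Mt 40: agactgtaaaTctgttgaagt
Leu-TAG-1-nuclei 21: ccgagtggtcTaaggcgccag
Gln-CTG-3-nuclei 65: caattctcggTagaacct
Thr-CGT-1-nuclei 32: tgcgttcgctTcgtaagcgaa

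Seedling and shoot had nearly the same Ψ fraction at most sites. In rRNA the median absolute difference was 0.014, and 150 of the 186 sites (80.6%) differed by less than 0.05. In tRNA the median absolute difference was 0.015, and 257 of the 348 sites (73.9%) differed by less than 0.05. The signed medians, taken as shoot minus seedling, were 0.006 in rRNA and 0.003 in tRNA. Shoot had the higher value at 116 rRNA sites, seedling at 59, and 11 were equal. For tRNA the corresponding numbers were 196, 129 and 23.

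**Figure D1:**
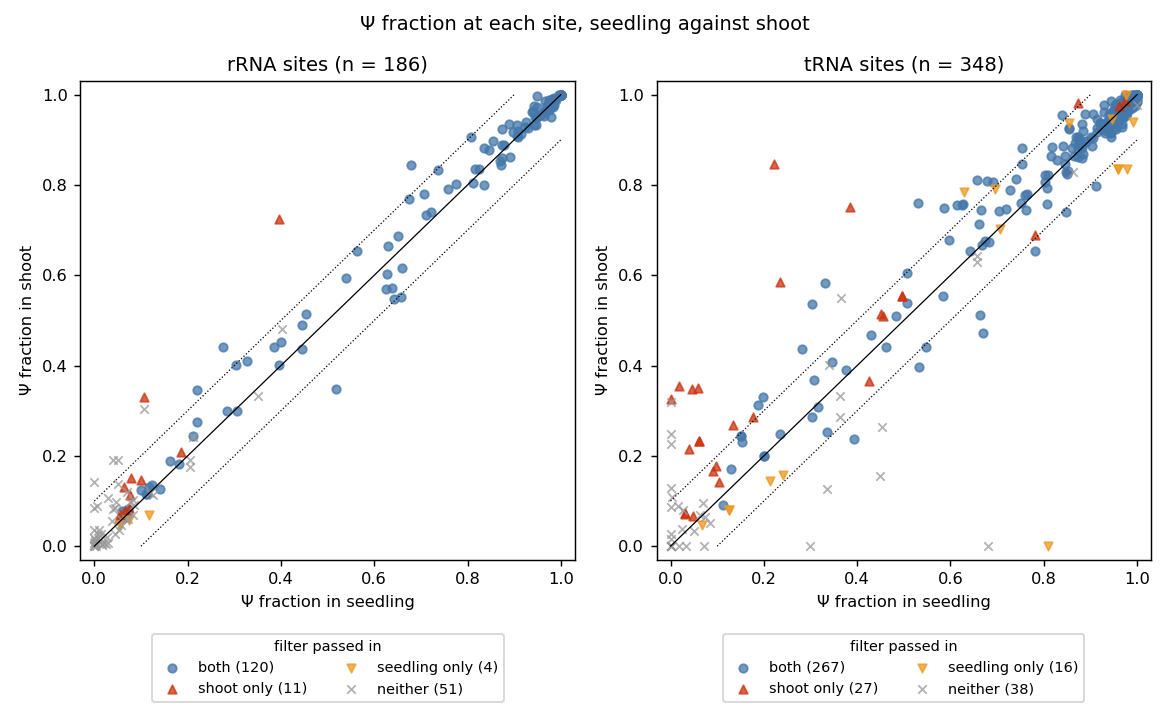
Ψ fraction in seedling (x axis) and shoot (y axis) at each of the 186 rRNA and 348 tRNA sites, one point per site, with the marker giving the tissue in which the authors' filter was passed. The solid line marks equal values and the dotted lines a difference of 0.1; most points lie between the dotted lines, and more of those outside lie above them than below.

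A difference of at least 0.1 was seen at 12 of the 186 rRNA sites (6.45%), of which 10 were higher in shoot (5.38% of all rRNA sites) and 2 in seedling (1.08%). It was seen at 52 of the 348 tRNA sites (14.9%), of which 35 were higher in shoot (10.1%) and 17 in seedling (4.89%). A difference of 0.2 or more was found at 2 rRNA sites (1.08%) and 18 tRNA sites (5.17%). The smallest rRNA difference inside the limit was at Nu-25S:1299 (0.807 in seedling and 0.907 in shoot), and the largest outside it was at Nu-25S:2267 (0.304 and 0.401). For tRNA the corresponding sites were Pro-AGG-3-nuclei 32 (0.003 and 0.109) and Arg-TCG-1-nuclei 40 (0.507 and 0.605).

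The filter passed in both tissues at 120 rRNA sites, in shoot only at 11, in seedling only at 4 and in neither at 51. For tRNA these numbers were 267, 27, 16 and 38. Of the 12 rRNA sites with a large difference, 6 had passed in both tissues, 2 in shoot only and 4 in neither. Of the 52 tRNA sites, 23 had passed in both, 13 in shoot only, 5 in seedling only and 11 in neither. Among sites passed in both, the large differences were 6 of 120 in rRNA (5.0%) and 23 of 267 in tRNA (8.61%).

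Counts of large differences are given by the mean Ψ fraction of the 2 tissues, with the limit that a mean close to 0 or 1 leaves no room for a difference of 0.1. Below 0.1, 1 of 57 rRNA sites and 2 of 26 tRNA sites differed by that much. Between 0.1 and 0.3, 5 of 24 rRNA sites (20.8%) and 16 of 33 tRNA sites (48.5%) did, and 19 of these 21 were higher in shoot. Between 0.3 and 0.7 the numbers were 4 of 24 in rRNA (16.7%) and 21 of 47 in tRNA (44.7%), and between 0.7 and 0.9 they were 2 of 23 (8.7%) and 11 of 60 (18.3%). At 0.9 or more, 0 of 58 rRNA sites and 2 of 182 tRNA sites differed by 0.1.

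The chloroplast sites with large differences all lay on the shoot side. Of 28 chloroplast rRNA sites 4 differed by at least 0.1, and of 67 chloroplast tRNA sites 13 did, and the 17 sites were all higher in shoot. Of the 4 rRNA sites, 1 was in 23S, 1 in 4.5S, 1 in 5S and 1 in a spacer. At the limit of 0.05, 25 of 27 were higher in shoot. Among the 61 chloroplast sites passed in both tissues, 8 differed by 0.1 or more, all in tRNA and all higher in shoot. The median chloroplast tRNA site hardly moved (0.001), with 36 sites higher in shoot and 26 in seedling, so the pattern belongs to the sites with large differences. In chloroplast rRNA the median was 0.0215, and 22 of 28 sites were higher in shoot. Nuclear sites with large differences lay on both sides. In nuclear rRNA 5 of the 7 large differences were higher in shoot, and in nuclear tRNA 20 of 33. With the limit at 0.05, 20 of 25 were higher in shoot in nuclear rRNA and 44 of 61 in nuclear tRNA. Among nuclear sites passed in both tissues, the numbers at 0.1 were 3 of 5 in rRNA and 6 of 13 in tRNA. At 0.05 they were 13 of 18 and 22 of 30. The median nuclear difference was 0.005 in both RNAs. Whether the chloroplast and nuclear splits differ was not tested.

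**Figure D2:**
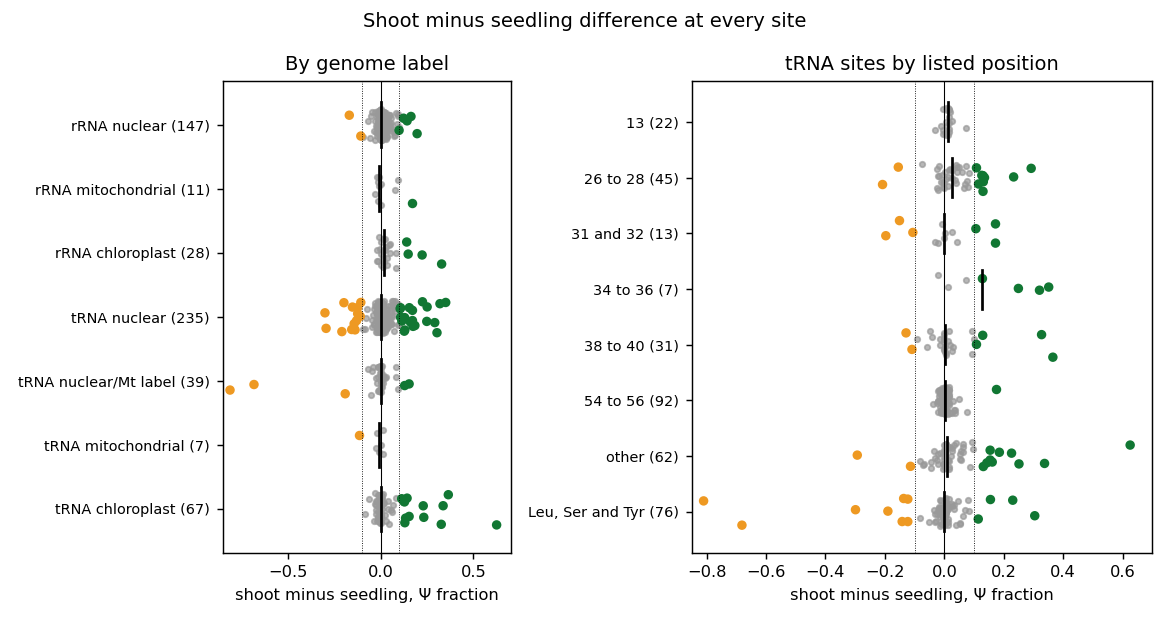
Shoot minus seedling difference in Ψ fraction (x axis) at every site, grouped by genome label (left) and, for tRNA, by listed position (right), with the number of sites in brackets. Green points are at least 0.1 higher in shoot, orange points at least 0.1 higher in seedling, grey points lie between, and the black bar is the median; both chloroplast groups hold green points but no orange ones.

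In rRNA the largest difference was at Pt-23S:948, in the large-subunit rRNA of the chloroplast. Its Ψ fraction was 0.396 in seedling and 0.725 in shoot, and it passed the filter in shoot only. Across the other 7 tissues it was highest in stem (0.757), followed by seed (0.573), and was listed at 0 in root and silique. Seedling was thus close to cauline leaf (0.367), and shoot to stem.

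The 5′ end of the chloroplast 5S rRNA came next. Pt-5S:1 had 0.107 in seedling and 0.331 in shoot and passed in shoot only. Rosetta and cauline leaf were near the seedling value (0.091 and 0.085), and flower (0.370), silique (0.333) and seed (0.385) near the shoot value. Position 4 of the same RNA was listed at 0 in seedling and had 0.085 in shoot, but passed in neither. A further pair of chloroplast sites with large differences passed in neither. One was placed in the spacer, 4 bases before the 16S rRNA (0.041 and 0.190), and the other was Pt-4.5S:31 (0.050 and 0.191). The placement of the spacer site rests on only 5 sites of the 16S block. In organelle rRNA the paper, working from shoots, identified Ψ only in Pt-23S and Mt-26S. It found no high-frequency Ψ in Pt-4.5S or Pt-5S.

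Among the nuclear rRNA sites that passed in both tissues, Nu-25S:1565 differed most and was higher in seedling. Its Ψ fraction was 0.517 in seedling and 0.349 in shoot. It was higher still in rosetta leaf (0.839) and cauline leaf (0.775) and lowest in seed (0.112). Shoot ranked 8 of the 9 tissues here and seedling 3, so seedling lay nearer to the mature leaves than shoot did.

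The next sites all passed in both tissues. In the small subunit, Nu-18S:35, close to the 5′ end, had 0.276 in seedling and 0.440 in shoot, with only seed higher (0.469). Nu-18S:1191, next to a site that the study places in the decoding region of helix 31, had 0.657 in seedling and 0.551 in shoot. The other 7 tissues had between 0.296 and 0.441, so both members of the pair lay above all of them. Nu-25S:1299 had 0.807 and 0.907. The shoot value was the highest of the 9 tissues, and root stood apart with 0.129.

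Nu-18S:1307 and Nu-18S:1309, separated by 1 guanosine, differed in opposite directions and passed in both tissues. Nu-18S:1307 had 0.221 in seedling and 0.345 in shoot, the highest of the 9 tissues. Nu-18S:1309 had 0.642 in seedling and 0.548 in shoot, and only root was lower (0.309). The sum of both fractions was 0.863 in seedling and 0.893 in shoot. Nu-5.8S:22, also passed in both, had 0.675 and 0.769, the shoot value again the highest of all tissues.

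Helix 69 held 12 of the rRNA sites, of which 1 exceeded the limit. In the mitochondrial ribosome, Mt-26S:1542 had 0.678 in seedling and 0.845 in shoot and passed in both. Mt-26S:1536 had 0.737 and 0.832, both above every other tissue (0.239 to 0.625), and Mt-26S:1546 had 0.870 and 0.853, and these also passed in both. Mt-26S:1540, which passed in neither tissue, had 0.402 and 0.480. In the chloroplast ribosome the 3 sites at the aligned bases were also higher in shoot, but by less: 0.401 and 0.453 at Pt-23S:1926, 0.758 and 0.792 at Pt-23S:1930, and 0.710 and 0.733 at Pt-23S:1932. In the nuclear ribosome the 5 sites were mixed. All 5 passed in both tissues. Nu-25S:2267 was higher in shoot (0.304 and 0.401), Nu-25S:2265 (0.626 and 0.569) and Nu-25S:2259 (0.660 and 0.616) were higher in seedling, and Nu-25S:2255 (0.811 and 0.805) and Nu-25S:2261 (0.396 and 0.402) were almost equal. At Nu-25S:2267 the other 7 tissues reached at most 0.188.

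Of the sites that passed in neither tissue, the 3 with the largest rRNA differences were Nu-25S:1819 (0.106 in seedling and 0.303 in shoot), the spacer site before the 16S rRNA and Nu-18S:723 (listed at 0 and 0.143). The 2 nuclear sites were far higher in silique (0.756 and 0.853) and seed (0.751 and 0.753) than in either member of the pair.

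The largest tRNA difference was also the largest toward seedling. Tyr-GTA-7-nuclei-Mt 40, at canonical position 39 in the anticodon stem, had 0.810 in seedling, where it passed the filter, and was listed at 0 in shoot. It was also listed at 0 in root, cauline leaf and seed but had 0.591 in rosetta leaf, 0.857 in flower and 0.923 in silique. The T-loop site of the same tRNA, position 65, had 0.974 in seedling and 0.984 in shoot, so the tRNA itself gave a value in shoot. Tyr-GTA-5-nuclei-Mt 32 showed the same course (0.681 in seedling, listed at 0 in shoot) but passed in neither. Its T-loop site (0.973 and 0.984) also followed that of Tyr-GTA-7-nuclei-Mt, and whether the 2 names share reads was not tested.

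Toward shoot the largest tRNA difference was in a chloroplast tRNA. Val-TAC-3-PT 17, in the D loop of a valine tRNA whose gene (ArthCt103, bases 51199 to 51871, minus strand of the chloroplast genome) is split by an intron, had 0.221 in seedling and 0.846 in shoot. It passed in shoot only, and the shoot value was above the other 7 tissues (at most 0.694, and listed at 0 in root and seed). Met-CAT-7-PT 17, at the same listed position of a methionine tRNA (ArthCt099, bases 36704 to 36777, minus strand), had 0.018 and 0.355, with at most 0.328 elsewhere, and also passed in shoot only. Up to position 17 the canonical number was taken from the listed one, and these 2 sites were the only ones given 17. A T comes before the site in both windows, so neither deletion can be placed on a single base. At their T-loop sites the tRNAs did not follow: Val-TAC-3-PT 56 had 0.965 and 0.972, and Met-CAT-7-PT 56 had 0.978 and 0.980.

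Pro-TGG-5-PT 39 (ArthCt106, bases 66490 to 66563, minus strand) lies in the anticodon loop at canonical position 38. It was listed at 0 in seedling and had 0.327 in shoot, above the highest value elsewhere (0.147 in silique), and passed in shoot only. Met-CAT-9-PT 40 had 0.385 and 0.750 and again passed in shoot only. Here flower (0.854) and silique (0.825) were higher still. Gly-GCC-4-PT 27 had 0.304 and 0.537 and Ser-GGA-1-PT 28 had 0.530 and 0.760, and both passed in both tissues. For Gly-GCC-4-PT 27 the pair spanned the whole range of the 9 tissues, with seedling lowest and shoot highest.

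The 7 remaining chloroplast tRNA sites with large differences were smaller and had between 0.114 and 0.154 more Ψ in shoot. They were Phe-GAA-3-PT 20 (0.657 and 0.811), His-GTG-3-PT 29 (0.613 and 0.756), Met-CAT-8-PT 28 (0.133 and 0.268), Asn-GTT-4-PT 27 (0.624 and 0.755), Cys-GCA-7-PT 38 (0.753 and 0.882), Val-GAC-1-PT 26 (0.187 and 0.313) and Tyr-GTA-8-PT 40 (0.840 and 0.954). All but Met-CAT-8-PT 28 passed in both tissues. Asn-GTT-4-nuclei-Mt 27, with the same 21 bases around the site, had nearly the same values as its chloroplast namesake (0.627 and 0.757), and reads that cover only the shared bases cannot be told apart.

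Of the nuclear tRNAs, Lys-CTT-1-nuclei 36 had 0.235 in seedling and 0.586 in shoot and passed in shoot only. It is listed at the third base of the lysine anticodon, which follows another T. Root was equally high (0.589), and rosetta leaf had 0.020. Leu-TAG-1-nuclei 21 in the D loop had 0.045 and 0.349, where no other tissue exceeded 0.168, and passed in shoot only. Phe-GAA-1-nuclei 27, which passed in shoot only as well, had 0.059 and 0.351, close to silique (0.357) and below rosetta leaf (0.421). Gln-CTG-3-nuclei 65, at canonical position 66 in the acceptor stem, had 0.331 and 0.582. It passed in both tissues and was higher in both than in the other 7 (0.058 to 0.296).

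The other sites of Gln-CTG-3-nuclei that passed the filter differed by 0.013 or less: position 13 had 0.977 and 0.971, position 27 had 0.979 and 0.992, position 39 had 1 in both tissues and position 54 had 0.984 and 0.978. Large differences occurred in 49 of 143 tRNA names, in 46 of them at a single site and in the other 3 at 2 sites. In 3 of the 49 names the site with the large difference was the only one listed.

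The remaining nuclear sites named by size were smaller. Thr-CGT-1-nuclei 32, listed at the uridine just before the anticodon, had 0.669 in seedling and 0.472 in shoot. The second name of this anticodon, Thr-CGT-2-nuclei 32, had 0.664 and 0.513. Val-AAC-1-nuclei 28 was also higher in seedling (0.393 and 0.238), and these 3 sites passed in both tissues. In contrast, His-GTG-1-nuclei 33 (0.587 and 0.748) and Leu-AAG-1-nuclei 3 in the acceptor stem (0.281 and 0.436), both passed in both tissues, and His-GTG-2-nuclei 54 (0.040 and 0.215), passed in shoot only, were higher in shoot. Pro-AGG-1-nuclei 32 and Pro-TGG-1-nuclei 32 passed in shoot only and had identical values in all 9 tissues (0.060 and 0.232 in the pair). Counted once, they left 51 tRNA sites with a large difference. Near-identical names are still counted apart there, and with 1 value per anticodon, genome label and position 42 were left. Of the tRNA sites passed in neither, Thr-AGT-1-nuclei 34 was listed at 0 in seedling with 0.320 in shoot, and Tyr-GTA-1-a-nuclei 35 had 0.299 in seedling and was listed at 0 in shoot.

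**Figure D3:**
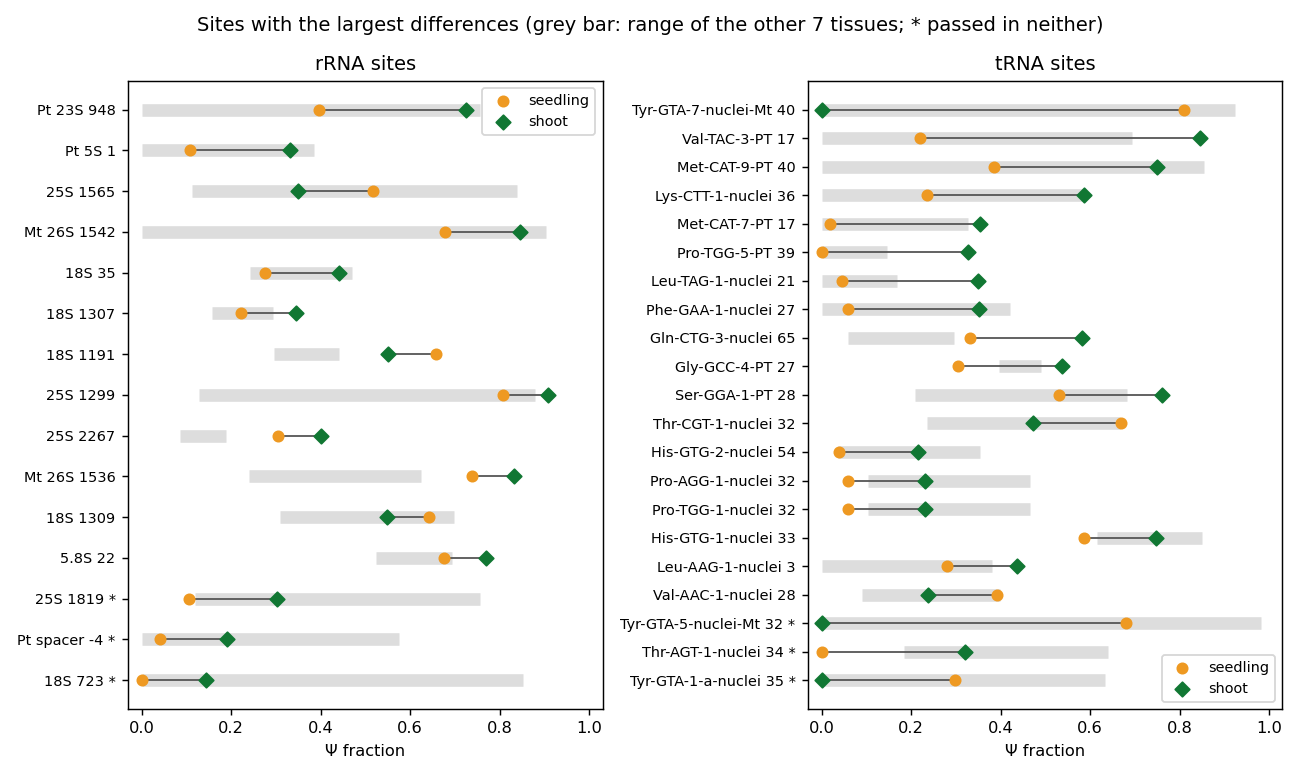
Ψ fraction (x axis) in seedling (orange circles) and shoot (green diamonds) at the named sites of both RNAs, with grey bars for the range of the other 7 tissues and asterisks for sites passed in neither tissue. Shoot lies to the right of seedling at most sites; Tyr-GTA-7-nuclei-Mt 40 has 0.810 in seedling and is listed at 0 in shoot, and at Nu-25S:2267 and Mt-26S:1536 both tissues lie above the grey bar.

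By location in the tRNA, sites listed at the uridine just 5′ of the anticodon varied most among the canonical positions with at least 10 sites. A canonical position could be read from matched genes for 300 tRNA sites, 44 of them with a large difference. At position 33, which makes the sharp turn of the anticodon loop, 10 of 15 sites differed by 0.1 or more, 5 in each direction, and the median absolute difference was 0.151. Only 6 of the 15 had passed in both tissues. Of these 4 differed by 0.1 or more, 1 higher in shoot and 3 in seedling, so the even split did not hold among them. At positions 27 and 28, at the top of the anticodon stem, 16 of 49 sites did, 11 of them higher in shoot. At position 39, a Deg1 target in yeast, 6 of 35 sites did, 3 in each direction. The T-loop position 55 was the steadiest of the large groups: 1 of 115 sites differed by 0.1 (His-GTG-2-nuclei 54), the median absolute difference was 0.009, and the median fractions were 0.975 and 0.971. In the D stem, 0 of 21 sites at position 13 differed by 0.1, and 16 were higher in shoot by any amount, with medians of 0.963 and 0.969. Because sites near 1 differed little everywhere, the level and the location cannot be separated for positions 13 and 55. The median fraction at position 33 was 0.449 in seedling and 0.320 in shoot. In the Thr-CGT-1-nuclei window shown above, the base before position 33 is also a T, so a deletion there cannot be placed on either of them. The same holds at Thr-AGT-1-nuclei 34, whereas a C comes before Tyr-GTA-1-a-nuclei 35. Such runs were not checked at the other position 33 sites, so part of the variation listed there may belong to the base before.

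The position 33 sites of proline and of threonine tRNAs did not share a direction. In proline tRNAs, Pro-AGG-3-nuclei 32 (0.003 and 0.109) and the shared AGG and TGG site above were higher in shoot, and Pro-CGG-1-nuclei 32 (0.547 and 0.441) in seedling. In threonine tRNAs the CGT sites were higher in seedling and the AGT site in shoot. Both histidine sites were higher in shoot, with His-GTG-2-nuclei 33 just under the limit (0.754 and 0.847). At Arg-CCT-1-nuclei 33, which passed in neither, seedling had 0.449 and shoot 0.156.

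By the listed numbering of the study, the order differed. The median absolute difference was 0.009 at listed positions 54 to 56, 0.0125 at 13, 0.018 at 38 to 40, 0.040 at 26 to 28, 0.043 at 31 and 32, and 0.128 over the 7 sites at 34 to 36. The last 2 values depended on the setting. With classes read from matched genes they were 0.0145 at 31 and 32 and 0.057 at 34 to 36, and the single site at 34 to 36 that passed in both tissues differed by 0.013. Without values of 0 the median at 34 to 36 was 0.046 over 4 sites. Leucine, serine and tyrosine tRNAs, whose long variable arm or differing loops shift the numbering, were kept apart and had 0.016. Of their 12 large differences 8 were higher in seedling. These 8 included Tyr-GTA-2-b, -d and -g-nuclei 56, 3 near-identical names with 0.959 to 0.978 in seedling and 0.836 in shoot. Among those passed in both tissues the direction turned: of 4 large differences 3 were higher in shoot and 1 in seedling. Without values of 0, 4 were higher in shoot and 5 in seedling.

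Close neighbours within an RNA often moved in opposite directions. Of 10 pairs of sites at most 4 bases apart in which both differed by 0.05 or more, 6 had opposite signs. Besides Nu-18S:1307 with 1309 and Nu-25S:2265 with 2267, they were Arg-CCG-3-nuclei 39 (0.848 and 0.739) with 41 (listed at 0 and 0.226), Arg-CCT-1-nuclei 33 (0.449 and 0.156) with 36 (listed at 0 and 0.249), Cys-GCA-7-PT 38 (0.753 and 0.882) with 41 (0.241 and 0.158), and Thr-CGT-1-nuclei 32 (0.669 and 0.472) with 35 (listed at 0 and 0.128). The 4 pairs with equal signs were the 2 pairs in mitochondrial helix 69 and 1 each in the chloroplast 4.5S and 5S rRNAs, all higher in shoot. Counted in the same way, the share of opposite pairs ranged over the 36 tissue pairs from 0 to 71.4%, with a median of 31.8%, against 60.0% for seedling and shoot. At least 1 site passed in neither tissue in 3 of the 6 opposite pairs.

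Among the 36 pairs that the 9 tissues form, seedling and shoot were one of the closest. Their median absolute difference ranked 2 of 36 in rRNA (0.014, range 0.010 to 0.077) and 1 of 36 in tRNA (0.015, range up to 0.139). By the number of sites differing by 0.1 or more, the pair ranked 2 in both RNAs, with 12 rRNA sites against a median of 45 over all pairs and 52 tRNA sites against a median of 84.5. Only rosetta and cauline leaf had fewer (9 and 39). Against root, in contrast, seedling differed at 58 rRNA and 226 tRNA sites. These pairs share tissues and are given side by side only. Leaves, stem, flower and silique came from older plants moved to soil, and seed was collected mature and dry. In comparisons with these tissues, growth conditions and age cannot be told apart from tissue.

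**Figure D4:**
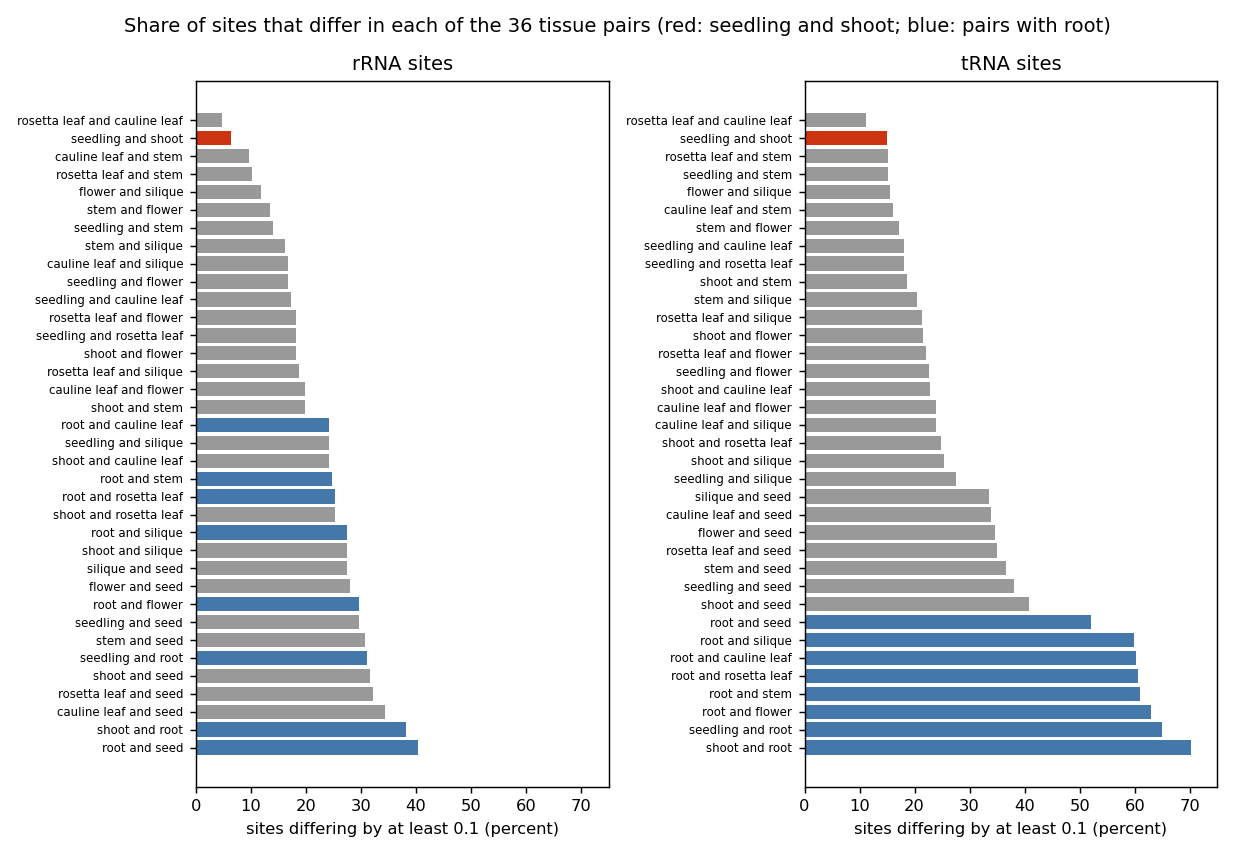
Percent of rRNA sites (left) and tRNA sites (right) whose Ψ fraction differed by at least 0.1 (x axis) in each of the 36 tissue pairs, ordered by count, with seedling and shoot in red and pairs with root in blue. Seedling and shoot stand second in both panels, with 6.45% of rRNA and 14.9% of tRNA sites, after the pair of leaf tissues.

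The pair also shared high values. Both tissues lay above the other 7 at 45 of 186 rRNA sites and 58 of 348 tRNA sites, and below them at 1 and 0. A gap of 0.05 or more above the next tissue was seen at 8 rRNA and 7 tRNA sites. The widest in rRNA was at Nu-25S:2267, followed by Mt-26S:1536, Nu-18S:1191 and Nu-18S:1179 (0.630 in seedling and 0.665 in shoot, against 0.053 in rosetta leaf and 0.527 in root). In tRNA the widest was at Arg-CCG-3-nuclei 39, where seedling had 0.848, shoot 0.739 and no other tissue more than 0.599. Shoot exceeded the other 7 tissues at 66 rRNA and 102 tRNA sites, and seedling at 51 and 77. These counts include the sites where both did. Over the large differences, both values lay within the range of the other 7 tissues at 8 of 12 rRNA sites and 26 of 52 tRNA sites, beside 106 of 186 and 219 of 348 over all sites.

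At the sites with large differences, each other tissue was set beside the pair. At the 35 tRNA sites higher in shoot, cauline leaf was nearer to seedling than to shoot at 27, rosetta leaf at 22, stem at 23, root at 25 and silique at 17, and flower was nearer to shoot at 20. Seed was nearer to seedling at 22 of the 34 sites where it had a value. At the 17 tRNA sites higher in seedling, cauline leaf was nearer to seedling at 10, and rosetta leaf and stem at 9 each. Root and flower were nearer to shoot at 13 each, and silique and seed at 12 each. Cauline leaf was thus nearer to seedling at most sites of both sets, and flower to shoot. Rosetta leaf and stem were nearer to seedling in the first set and almost even in the second. Root and seed were mostly nearer to whichever tissue was lower. Seed lay below both tissues at 19 sites of the first set and 8 of the second, and root at 11 and 10. Values of 0 made up 14 and 8 of the seed values and 4 and 4 of the root values. The counts cover only sites chosen for their large difference. At the 10 rRNA sites higher in shoot, root was nearer to seedling at 8 and lay below both tissues at 7, with 4 listed at 0.

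In rRNA 6 sites were listed at 0 in seedling and above 0 in shoot, 1 the other way, and 2 in both. In tRNA the numbers were 8, 6 and 6. Of the large tRNA differences, 8 of 52 rested on a value of 0, 5 of them listed at 0 in seedling and 3 in shoot, and 44 were left without them. In rRNA 1 of 12 did. Only 2 sites were listed at 0 in one tissue and passed in the other, Tyr-GTA-7-nuclei-Mt 40 and Pro-TGG-5-PT 39.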

How the data were processed

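The authors treated total RNA with bisulfite, prepared single-read libraries beside untreated inputs and processed them with their own BID-seq pipeline against TAIR10. Per the labels, synthetic RNAs of known Ψ content were carried through library preparation, and the authors turned gap ratios into Ψ fractions with a calibration curve. The deposited values are Ψ fractions (0 to 1), 1 per site and tissue, computed by the authors from reads summed over both replicates, and a TRUE or FALSE flag for their filter on p-values, whose thresholds are not given in the sources used here. Depth per sample is unknown, so no interval, error or test was computed, and inputs were used only as far as the authors' own calls used them.

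Here seedling was subtracted from shoot at every site, with differences rounded to 3 decimals, in Python 3.11.15 with pandas 2.3.3. Differences of 0.1 or more were counted. Named sites were, by absolute difference, the top 12 in rRNA and the top 18 in tRNA among those passed in at least 1 of the 2 tissues, all sites listed at 0 in 1 tissue and passed in the other, and the 3 per RNA class with the largest difference among sites passed in neither. Further sites named for their region, position or a neighbour were chosen after their values were seen. The members, limits and lists were chosen with earlier results of these data known. Counting was tested on simulated data.

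rRNA positions were placed on TAIR10.1 with the offset that put most of them on a T. All 147 nuclear sites fell on a T (62 at the next best offset), as did 10 of 11 mitochondrial sites (8 at the next best). All 28 chloroplast sites did too, 5 in the 16S block (3 at the next best offset) and 23 in the 23S to 5S block (14). The 16S block, which includes the spacer site before the 16S rRNA, is thus placed less securely, from only 5 sites. Of 144 tRNA names, 138 matched annotated tRNA genes by anticodon, genome and a T at the listed positions, 62 of them a single gene sequence. Names with several matching sequences are printed only where all agree around the site. Alternatives were other site filters, thresholds, zeros as missing, centring and collapsed tRNA names.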

Additional observations from a re-analysis of the deposited data

How the results depend on the processing

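No paired analysis was possible because the deposited values pool both replicates of a tissue, and for the same reason no replicate could be left out. The count of large differences followed the limit and the filter: in rRNA it was 36 at a limit of 0.05, 2 at 0.2 and 6 among sites passed in both tissues, and in tRNA 91, 18 and 23. The share of large rRNA differences higher in shoot, 83.3%, was 66.7% among sites passed in both and 100.0% at the limit of 0.2. In tRNA it stayed within 10 points of 67.3% under the alternatives run. The mean difference was 0.0189 in rRNA and 0.0146 in tRNA, against medians of 0.006 and 0.003. The tRNA rank of the pair moved from 1 to 2 with the mean absolute difference or the count of large differences. With classes read from matched genes, the median absolute difference was 0.0145 at positions 31 and 32, 0.057 at 34 to 36, 0.0275 at 38 to 40 and 0.0675 at other positions. Among sites passed in both it was 0.015 at other positions. It was 0.013 at 34 to 36 and 0.002 in the chloroplast 4.5S rRNA, each resting on a single site. The cause of these shifts was not tested, beyond the fewer sites that stricter settings leave. Treating zeros as missing, subtracting the median difference, collapsing tRNA names and 2 alternatives added after seeing the data (identical sites counted once; names with the joint nuclear and mitochondrial label left out) changed no direction. Unknown depth limits every value, most of all those listed at 0 and those passed in 1 tissue or neither.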
